A study of Homo sapiens with 4 samples.

Results

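The breakdown of the branched-chain amino acids leucine, isoleucine and valine is described here through 10 genes, chosen by symbol from the 22985 named genes of the series. They encode both transaminases (BCAT1 and BCAT2), the branched-chain keto acid dehydrogenase complex (BCKDHA, BCKDHB, DBT and DLD), its inhibiting kinase (BCKDK) and the next enzymes on the leucine branch (IVD, MCCC1 and MCCC2). All 10 had rows in the tables and all 10 passed the filter on low counts. They were listed with the levels and fold changes of this same comparison already known, so the values and calls below describe them and test nothing.

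Total RNA depleted of ribosomal RNA was sequenced from 2 human prostate cancer cell lines, with 2 libraries labelled C4-2 and 2 labelled LNCaP. LNCaP is an androgen-sensitive line from a lymph node metastasis, labelled primary PC, and C4-2 is a castration-resistant subline derived from it in castrated mice, labelled CRPC. Both lines grew in RPMI medium whose serum had been stripped of steroids with charcoal. Each line is a single line in culture, and nothing in the labels tells whether its libraries came from separate cultures. Standard errors thus rest on the spread between these libraries, which may be technical and which edgeR moderates over all genes. The tables are stored under line names that contradict the sample titles; groups follow the sample titles and cell line labels, and every direction would turn round if the stored names were right.

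The libraries held 163126630 and 119080520 sense tags of named genes for C4-2, against 58925680 and 70459588 for LNCaP. That was 67.67% and 69.43% of all tags by which the authors had divided their RPKM values in C4-2, against 31.03% and 35.65% in LNCaP. Scaling to those totals in place of TMM raised the median log2 fold change of all genes by 1.004, so fold changes here are relative to the typical gene, and the part of the exon share in them was not tested. Luminal prostate markers (9, among them KLK3 and KRT8) summed to 808 and 817 RPKM in C4-2 and to 371 and 425 RPKM in LNCaP. RPKM divides by those library totals, so the distance between the lines in these sums depends on the scaling. With TMM, 6 of the 9 were called higher in C4-2 and 3 lower. KLK3, among the lower ones, had 2.15 and 2.25 RPKM in C4-2, against 88.5 and 104.7 RPKM in LNCaP. Basal, fibroblast, immune and endothelial markers summed to at most 0.900 RPKM per list and library, and CD3E and COL1A2 had no tag in any library.

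Branched-chain amino acids are first transaminated, passing their amino group to 2-oxoglutarate to give glutamate and a branched-chain keto acid. BCAT1 does this in the cytosol and BCAT2 in mitochondria, where the dehydrogenase complex then commits the keto acid to oxidation. BCAT1 is low in most adult tissues and present in several tumour types, while BCAT2 is broadly expressed.

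BCAT1 had the largest difference of the 10 genes, and sequence around a transcript start is shown for that reason. It is shown together with that of both subunit genes of methylcrotonyl-CoA carboxylase, MCCC1 and MCCC2, which moved in parallel. Windows of 300 bases, from 250 before a transcript start to 50 after it, came from RefSeq (GRCh38.p14), which gave 16 windows for 9 of the 10 genes, all but BCAT2. Motifs searched on both strands were CACGTG, the palindromic E-box, and TGATGNAA, the core of the amino acid response element. Both were picked with the values known, and they did not overlap each other in these windows. Capitals mark the matches.
BCAT1, chr12:24949052-24949351, minus strand: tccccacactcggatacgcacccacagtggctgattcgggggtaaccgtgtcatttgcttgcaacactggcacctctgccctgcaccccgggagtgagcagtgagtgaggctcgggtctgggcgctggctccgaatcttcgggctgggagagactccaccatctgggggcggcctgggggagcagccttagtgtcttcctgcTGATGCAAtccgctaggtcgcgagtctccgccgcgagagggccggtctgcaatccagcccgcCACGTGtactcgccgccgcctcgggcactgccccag
MCCC1, chr3:183099447-183099746, minus strand: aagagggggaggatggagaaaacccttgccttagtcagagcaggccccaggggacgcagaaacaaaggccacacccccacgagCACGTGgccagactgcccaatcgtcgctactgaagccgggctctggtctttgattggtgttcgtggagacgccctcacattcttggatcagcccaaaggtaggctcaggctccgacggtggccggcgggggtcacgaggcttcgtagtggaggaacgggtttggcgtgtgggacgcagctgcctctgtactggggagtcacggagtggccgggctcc
MCCC2, chr5:71587090-71587389, plus strand: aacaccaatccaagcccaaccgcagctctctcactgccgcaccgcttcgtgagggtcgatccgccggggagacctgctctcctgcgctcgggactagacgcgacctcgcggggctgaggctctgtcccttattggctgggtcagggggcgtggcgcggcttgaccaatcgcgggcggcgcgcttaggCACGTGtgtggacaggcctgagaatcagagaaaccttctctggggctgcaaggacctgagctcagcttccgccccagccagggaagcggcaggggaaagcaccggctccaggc
CACGTG lay in 1 of 5 BCAT1 windows, in 2 overlapping windows of MCCC1 and in the window of MCCC2. None of the other genes with a window held it, and 7.26% of all 35116 windows did. For BCAT1 and MCCC1 the window shown is one that held a match, and their other windows are not shown. TGATGNAA lay in that same BCAT1 window and in no other window of the 9 genes, against 3.62% of all windows. The BCAT1 window shown held 23 CG pairs, the MCCC1 window 19 and the MCCC2 window 25, where the median of all windows was 14. A match is a description of letters, and binding was not measured.

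BCAT1, the cytosolic transaminase gene, was close to absent from the libraries labelled C4-2 (hg19 chromosome 12, 24962958 to 25102393, minus strand). It had 33 and 36 sense tags in C4-2, against 6186 and 6844 in LNCaP. The lines stood far apart, and the tags of C4-2 carried 95% Poisson intervals of 22.7 to 46.3 and 25.2 to 49.8, which cover counting error only. Scaled by TMM to CPM, counts per 1e6 tags, BCAT1 averaged 0.255 ± 0.071 in C4-2 and 99.8 ± 4.4 CPM in LNCaP (SD, n = 2 each). Its log2 fold change, C4-2 over LNCaP, was -8.64 ± 0.12 (SE), the 53rd lowest of the 15975 genes tested. Scaled to library totals it stood at -7.63. In bulk RNA, fewer cells with a transcript and less of it per cell cannot be told apart.

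All 5 deposited BCAT1 transcripts showed the same contrast, though they share most of their exons and thus their tags. The transcripts that start at position 25102393 (NM_005504, NM_001178092 and NM_001178091) had 33 to 36 tags in C4-2, against 5971 to 6844 in LNCaP. Those that start further downstream, at 25056009 (NM_001178093) and 25055322 (NM_001178094), had 33 to 36 tags in C4-2, against 6095 to 6721 in LNCaP. Which start was used cannot be read from rows that share so many tags. The opposite strand held 2 and 0 tags in C4-2 and 8 and 12 in LNCaP.

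BCAT2, the mitochondrial transaminase gene, was higher in C4-2 (hg19 chromosome 19, 49298319 to 49314320, minus strand). It had 46.0 and 43.8 CPM in C4-2, against 25.2 and 26.2 CPM in LNCaP. Both C4-2 libraries lay above both LNCaP libraries, and the log2 fold change was 0.81 ± 0.056 (SE). Non-coding rows with no symbol overlap BCAT2 on its own strand and count some of the same tags.

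Within a library the ratio of these 2 genes needs no scaling between libraries. From the deposited RPKM values, which divide tags by exon length, BCAT1 made up 0.0729% and 0.117% of the BCAT1 plus BCAT2 signal in C4-2, against 40.3% and 37.9% in LNCaP. LNCaP thus carried both transcripts at like levels per length and C4-2 almost BCAT2 alone. On the TMM scale per kilobase of exon, the summed level of both genes was 28.8 and 27.4 CPM per kb in C4-2 and 26.4 and 26.4 CPM per kb in LNCaP. That nearness depends on the scaling, since the summed deposited RPKM was 19.2 and 18.9 in C4-2, against 8.36 and 9.44 in LNCaP.

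**Figure D1:**
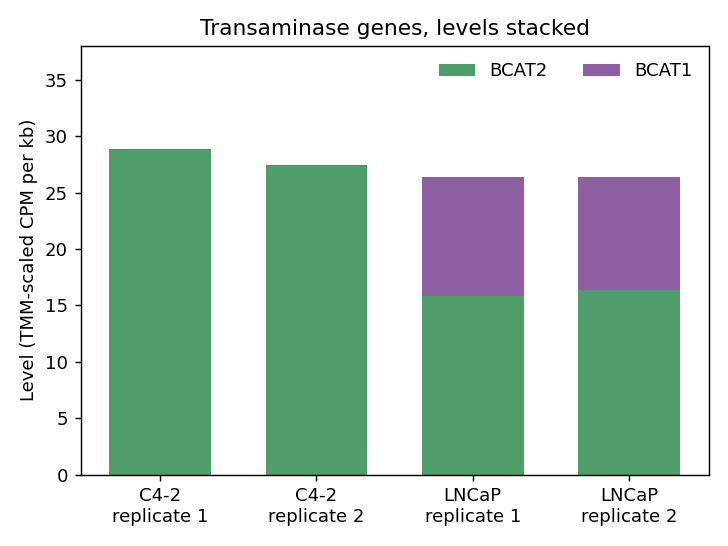
Stacked bars show the level per length (TMM-scaled CPM per kb of exon, vertical axis) of BCAT2 and BCAT1 in each library, with C4-2 on the left and no error bar since each bar is 1 library. The bars reach 28.8 and 27.4 in C4-2 and 26.4 in both LNCaP libraries, and BCAT1 is visible only in LNCaP.

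The catalytic genes of the dehydrogenase complex did not move together. BCKDHA and BCKDHB encode the subunits of the decarboxylase, DBT the core acyltransferase, and DLD the lipoamide dehydrogenase that the pyruvate and 2-oxoglutarate dehydrogenases and the glycine cleavage system also use. BCKDHB was higher in C4-2 and DLD lower, while DBT and BCKDHA differed by little.

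BCKDHA (hg19 chromosome 19, 41903694 to 41930910, plus strand) had 17.2 and 16.6 CPM in C4-2, against 14.9 and 15.5 CPM in LNCaP. The lines stood clear of each other, but the log2 fold change of 0.15 ± 0.063 (SE) was not called. GENCODE places exons of a second gene of the same strand over 73.7% of its exon bases, so its tags cannot be given to BCKDHA alone. BCKDHB (hg19 chromosome 6, 80816344 to 81055987, plus strand) had 38.3 and 40.6 CPM in C4-2, against 27.0 and 28.2 CPM in LNCaP, with a log2 fold change of 0.51 ± 0.058 (SE). Both C4-2 libraries were higher.

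BCKDHB has 2 deposited transcripts with unlike exon content, of 1550 and 3712 bases. The shorter (NM_000056) stood at 1.747 and 1.733 times the RPKM of the longer (NM_183050) in C4-2, against 1.498 and 1.587 times in LNCaP. Tags were thus denser on the exons of the shorter transcript in all 4 libraries, and more so in C4-2. Counted on the shorter transcript, the log2 fold change of BCKDHB was 0.69.

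DBT (hg19 chromosome 1, 100652478 to 100715409, minus strand) had 162 and 164 CPM in C4-2, against 181 and 179 CPM in LNCaP. The difference was small, with a log2 fold change of -0.14 ± 0.041 (SE), and leaving out either C4-2 library ended its call (-0.12 without C4-2 replicate 1 and -0.14 without C4-2 replicate 2). DLD (hg19 chromosome 7, 107531586 to 107561643, plus strand) was the most abundant of the group, with 250.4 and 256 CPM in C4-2, against 414 and 400.2 CPM in LNCaP. It was lower in C4-2, with a log2 fold change of -0.68 ± 0.041 (SE). With library totals both genes turned positive, DBT at 0.86 and DLD at 0.32.

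Ratios within a library show the same spread of the complex without scaling between libraries. Per length, DLD stood at 7.22 and 7.66 times BCKDHA in C4-2, against 13.8 and 12.8 times in LNCaP. DBT stood at 1.55 and 1.62 times BCKDHA in C4-2 and at 1.99 and 1.90 times in LNCaP. BCKDHB stood at 1.06 and 1.17 times BCKDHA in C4-2 and at 0.867 and 0.871 times in LNCaP. Relative to the tags on BCKDHA, which include any from the gene that overlaps it, those of DLD and DBT were thus fewer in C4-2 and those of BCKDHB more. Against PDHA1, which encodes the matching subunit of pyruvate dehydrogenase, DLD stood at 2.36 and 2.42 times in C4-2 and at 5.75 and 5.52 times in LNCaP.

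BCKDK, the kinase that phosphorylates the decarboxylase and shuts the complex down, was higher in C4-2 (hg19 chromosome 16, 31119662 to 31124112, plus strand). It had 43.2 and 40.2 CPM in C4-2, against 25.5 and 29.9 CPM in LNCaP, and LNCaP replicate 1 was the lowest library. Its log2 fold change was 0.59 ± 0.081 (SE), the largest error among the genes of the group other than BCAT1. PPM1K, the phosphatase that reverses this phosphorylation, had 46.7 ± 0.91 CPM in C4-2 and 43.7 ± 1.2 CPM in LNCaP (SD, n = 2 each) and was not called (log2 fold change 0.09 ± 0.052 SE). Per length, the kinase transcript stood at 2.85 and 2.57 times the phosphatase transcript in C4-2, against 1.81 and 2.03 times in LNCaP.

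On the leucine branch all 3 genes were higher in C4-2. IVD, which encodes isovaleryl-CoA dehydrogenase (hg19 chromosome 15, 40697686 to 40713512, plus strand), had 226 and 219.5 CPM in C4-2, against 134 and 144 CPM in LNCaP. The C4-2 libraries lay above, with a log2 fold change of 0.68 ± 0.051 (SE). MCCC1, the biotin-carrying subunit gene of methylcrotonyl-CoA carboxylase (hg19 chromosome 3, 182733006 to 182817365, minus strand), had 124 and 126 CPM in C4-2, against 99.0 and 101 CPM in LNCaP (log2 fold change 0.32 ± 0.039, SE). MCCC2, the other subunit gene (hg19 chromosome 5, 70883115 to 70954530, plus strand), had 64.6 and 64.3 CPM in C4-2, against 52.8 and 52.2 CPM in LNCaP (0.30 ± 0.045, SE). C4-2 was higher in each case, by a smaller step than for IVD.

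The subunit genes of the carboxylase stood in nearly the same ratio in both lines. Per length MCCC1 stood at 2.78 and 2.85 times MCCC2 in C4-2 and at 2.72 and 2.81 times in LNCaP, and these ranges overlap. IVD stood at 0.992 and 0.944 times MCCC1 in C4-2, against 0.734 and 0.774 times in LNCaP, where the ranges do not overlap.

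Across the 10 genes, 9 were called by the quasi-likelihood test of edgeR over all genes (adjusted p under 0.05), where 80.0% of all genes tested were called. Of them 6 were higher in C4-2, where the share of all genes was 40.2%, and 3 lower, where it was 39.7%. All 10 genes had no overlap between the libraries of one line and the other, which held for 89.9% of all genes tested. The median log2 fold change was 0.31 for the 10 genes and -0.01 for all genes. With library totals 9 were called higher and 1, BCAT1, lower, and the share of all calls that were higher went up to 86.8%, against 50.3% with TMM.

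**Figure D2:**
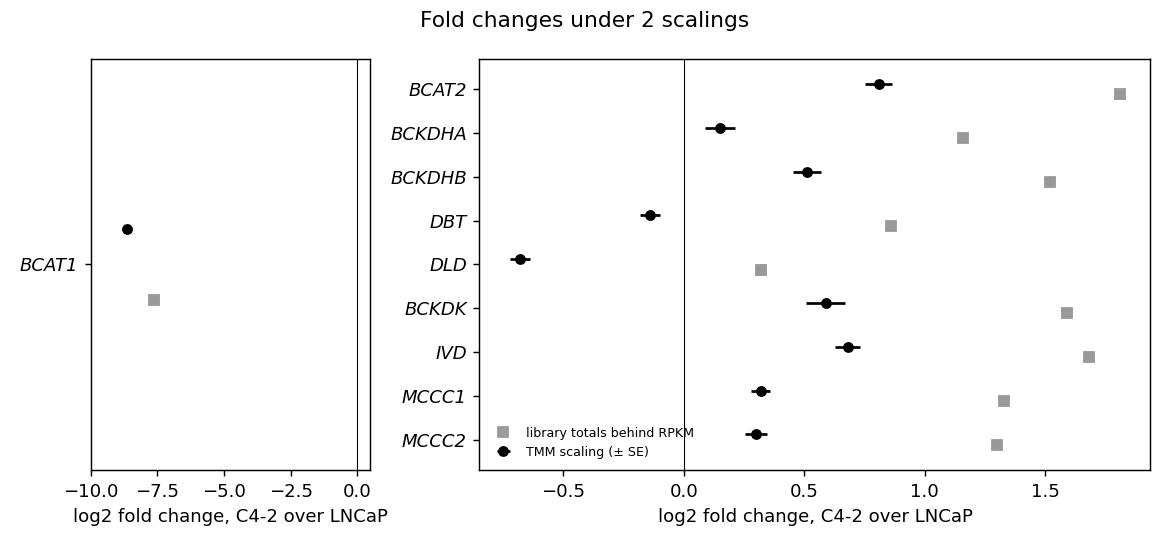
Log2 fold changes of the 10 genes, C4-2 over LNCaP (horizontal axes), with BCAT1 on its own axis, as black points with TMM scaling (bars are SE) and grey squares with library totals (no error drawn). BCAT1 lies at -8.64 and -7.63, while DBT and DLD lie below 0 with TMM and above 0 with library totals.

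The order of the levels per length differed between the lines, with DLD, MCCC1 and IVD at the top of both. In C4-2 it ran, in TMM-scaled CPM per kb (SD, n = 2), from DLD at 70.8 ± 1.2 through MCCC1 (49.4 ± 0.7), IVD (47.8 ± 0.99), BCAT2 (28.1 ± 0.97), BCKDK (19.2 ± 0.98), MCCC2 (17.6 ± 0.059), DBT (15.1 ± 0.15) and BCKDHB (10.6 ± 0.44) to BCKDHA (9.52 ± 0.23), with BCAT1 last at 0.0264 ± 0.0073. In LNCaP it ran from DLD at 114 ± 2.8 through MCCC1 (39.5 ± 0.61), IVD (29.8 ± 1.6), DBT (16.6 ± 0.11), BCAT2 (16.1 ± 0.41), MCCC2 (14.3 ± 0.11), BCKDK (12.7 ± 1.4), BCAT1 (10.3 ± 0.46) and BCKDHA (8.56 ± 0.23) to BCKDHB (7.44 ± 0.23). MCCC1 and IVD in C4-2 were the neighbours whose means differed by no more than the sum of their SDs, and all other neighbours differed by more. The place of BCKDHB rests on the transcript counted, since its mean deposited RPKM was 12.5 in C4-2 and 3.88 in LNCaP on the shorter transcript, against 6.87 and 7.53 in the C4-2 libraries and 2.30 and 2.72 in the LNCaP libraries on the longer.

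**Figure D3:**
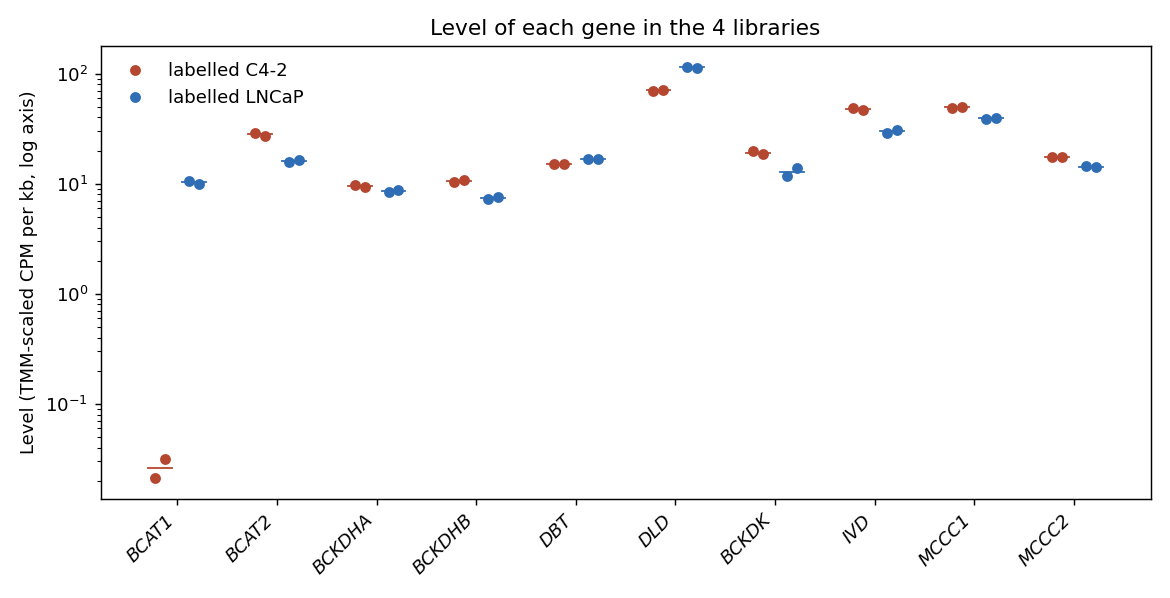
Level per length (TMM-scaled CPM per kb, log axis) of each gene, with a point per library, C4-2 left of LNCaP, and a line at the mean. BCAT1 averages 0.0264 in C4-2 and 10.3 in LNCaP, while the other 9 genes differ by less than 2-fold between the lines.

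The wider pathway was read through 9 lists of 83 genes, also written with earlier results of these data known, of which 80 were tested. Of these 44 were higher in C4-2, 20 lower and 16 not called, with a median log2 fold change of 0.20, beside 40.2%, 39.7% and a median of -0.01 over all genes. With library totals 71 were higher and 3 lower. The counts of each list below use TMM and are to be set beside the same shares over all genes.

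After the carboxylase the leucine branch ends in acetyl-CoA and ketone bodies, and its genes were split. OXCT1, which encodes the enzyme that activates ketone bodies for use, was higher in C4-2 (0.99 ± 0.041, log2 and SE). ACAT1, the acetoacetyl-CoA thiolase gene, had 138 ± 0.47 CPM in C4-2 and 295 ± 2.9 CPM in LNCaP (SD, n = 2 each), a log2 fold change of -1.10 ± 0.041 (edgeR adjusted p = 1.38e-07). AUH, the hydratase gene, was lower (-0.38 ± 0.054). With library totals ACAT1 lost its call (-0.10) and AUH turned positive, at 0.63.

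On the isoleucine and valine branches 9 of 13 genes were higher, 1 lower and 3 not called. HIBCH, the hydrolase gene of the valine branch, had 73.4 ± 2 CPM in C4-2 and 33.4 ± 1.2 CPM in LNCaP (SD, n = 2 each; log2 fold change 1.14 ± 0.052, SE). HADHA, a subunit gene of the trifunctional protein of fatty acid oxidation, and ALDH6A1, which encodes methylmalonate semialdehyde dehydrogenase, stood at 0.70 and 0.48. ACADSB, the acyl-CoA dehydrogenase gene of the isoleucine branch and thus the counterpart of IVD, was the gene that fell (-0.46), and turned positive with library totals (0.55).

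Transport genes were split 3 against 3. SLC7A5, the main plasma membrane carrier of large neutral amino acids, had 2.64 ± 0.1 CPM in C4-2 and 95.9 ± 2.4 CPM in LNCaP (SD, n = 2 each; log2 fold change -5.18 ± 0.065, SE). It is the gene of these 9 lists nearest to BCAT1 in size of change among those with tags in all libraries. SLC43A1, a branched-chain amino acid carrier gene first described in prostate cancer, was lower (-0.56, or 0.44 with library totals). SLC43A2, its paralogue, and SLC25A44, which carries branched-chain amino acids into mitochondria, were higher (0.90 and 0.50).

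In leucine sensing, which reports leucine to the kinase complex mTORC1, 9 of 17 genes were higher, 5 lower and 3 not called. SESN1, a leucine-binding sestrin, and the Rag GTPase genes RRAGD and RRAGA were higher (1.28, 1.56 and 0.62). RRAGB, the paralogue of RRAGA, was lower (-0.83, or 0.17 with library totals). The other sestrin genes SESN2 and SESN3 and the Rag GTPase gene RRAGC were also lower with TMM (-0.44, -0.29 and -0.67).

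Complexes related to the dehydrogenase had 7 of 10 genes higher, 2 lower and 1 not called. GLDC, the decarboxylase of glycine cleavage, had 19.8 ± 0.33 CPM in C4-2 and 4.16 ± 0.0055 CPM in LNCaP (SD, n = 2 each; log2 fold change 2.25 ± 0.074, SE). PDHA1 and the 2-oxoglutarate dehydrogenase core gene DLST were higher (0.55 and 0.54), and DLAT, the acyltransferase core of pyruvate dehydrogenase, was lower (-0.50, or 0.50 with library totals). Among the 8 kinase and phosphatase genes, 2 were higher, 3 lower and 3 not called. The pyruvate dehydrogenase kinase genes PDK2 and PDK3, relatives of BCKDK, were lower (-0.74 and -0.29) and turned positive with library totals (0.26 and 0.71), and the phosphatase gene PDP2 was higher (0.39). PDK4 had 0 tags in both C4-2 libraries and 16 and 11 in LNCaP, so it was near the limit of detection in both lines.

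Partners in glutamate and 2-oxoglutarate metabolism had 5 of 9 genes higher, 2 lower and 2 not called. GOT2, the mitochondrial aspartate transaminase gene, had 292 ± 11 CPM in C4-2 and 98.3 ± 2.6 CPM in LNCaP (SD, n = 2 each; log2 fold change 1.57 ± 0.048, SE). GPT2, the mitochondrial alanine transaminase gene, and GLUD1, which encodes glutamate dehydrogenase and has a near copy in GLUD2, were higher (0.55 and 0.41). Whether GLUD1 and GLUD2 share reads was not measured. PSAT1, the phosphoserine transaminase gene, was lower (-0.87, or 0.14 with library totals).

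Cofactor and electron transfer genes had 5 of 10 higher, 2 lower and 3 not called. IVD and ACADSB pass electrons to the flavoprotein of ETFA and ETFB and from there to ETFDH. ETFA had 312 ± 3.7 CPM in C4-2 and 758 ± 6.4 CPM in LNCaP (SD, n = 2 each; log2 fold change -1.28 ± 0.035, SE, or -0.27 with library totals), and ETFDH was lower too (-0.54, or 0.46 with library totals). The thiamine carrier gene SLC19A2 was higher (1.33). Of the other biotin carboxylases 3 of 5 were higher and 2 not called, with PC, pyruvate carboxylase, at 1.45, ACACA, acetyl-CoA carboxylase, at 0.65 and PCCA, a subunit of propionyl-CoA carboxylase, at 0.19. The call of PCCA ended without C4-2 replicate 1.

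**Figure D4:**
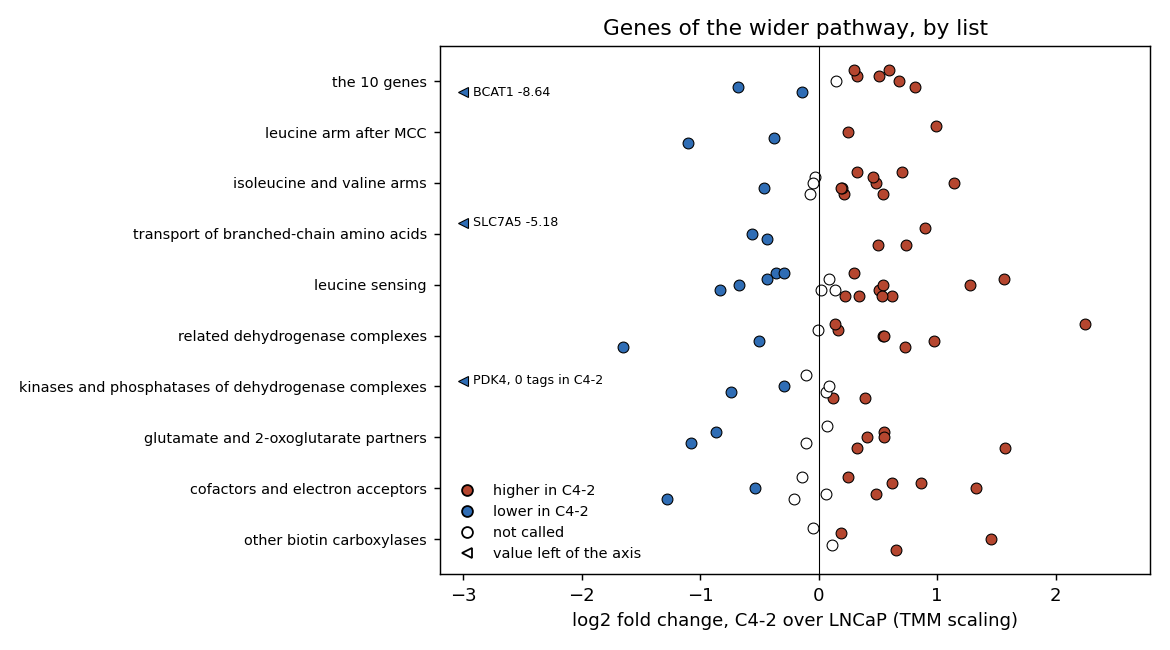
Log2 fold changes with TMM scaling, C4-2 over LNCaP (horizontal axis), of the tested genes of each list, with a point per gene coloured by its call and shifted vertically only to keep points apart. Triangles at the left edge stand for BCAT1 (-8.64), SLC7A5 (-5.18) and PDK4 (0 tags in C4-2).

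Genes with the most similar pattern over the 4 libraries were sought among 11227 genes averaging 2 or more in log2 CPM, by the Euclidean distance between mean-centred log2 CPM values (prior count of 2). With 4 libraries, such a distance mostly reads the size of the change between the lines, as damped by the prior count where tags are few. Nearest to BCAT1 were SLC25A43, a mitochondrial carrier gene (distance 0.16), the thrombospondin gene THBS1 (0.36), the overlapping genes CCDC169-SOHLH2 and SOHLH2 (0.44 and 0.46), and NNT, the mitochondrial transhydrogenase gene (0.59). Their log2 fold changes ran from -8.46 (THBS1) to -10.92 (SLC25A43), so the order by distance is not the order by fold change. SLC25A43 had 0 and 0.00848 CPM in C4-2. THBS1 had 0.504 and 0.526 CPM in C4-2, against 179.7 and 182 CPM in LNCaP, and NNT 0.0498 and 0.0763 CPM in C4-2, against 42.6 and 46.7 CPM in LNCaP. Nearest to IVD were ATG4B, YKT6, TM9SF1, TUBA1B and SLC25A38, at distances of 0.0061 to 0.015 and log2 fold changes of 0.67 to 0.69.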

How the data were processed

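TopHat2 2.0.6, Bowtie and the genome build hg19 (GRCh37) are named in the submitters' processing notes; neither the counting tool nor the source of the models is given in the sources used here. Per the file headers, the authors deposited a tag count and an RPKM value per strand for 41351 rows of RefSeq transcripts. The library total behind RPKM was recovered from single-exon transcripts, and exon lengths from RPKM and that total. Accessions were named through a RefSeq table (GRCh38.p14, names only), which gave symbols to 38974 of 40304 accessions; unnamed rows held 2.06% to 2.15% of sense tags and stayed out. The transcript kept for a symbol was that with the largest share of sense tags, averaged over the libraries.

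Deposited counts were tested over all genes in edgeR 4.0.16 (R 4.3.3) by its quasi-likelihood test. Settings were filterByExpr, TMM, cell line as the only term and Benjamini-Hochberg adjusted p under 0.05. A check on simulated data changed few genes, as many up as down, and so does not cover a contrast with 80.0% of genes called. Standard errors were computed as the log2 fold change over the root of F. CPM means counts per 1e6 tags after TMM. Replicates differed by more than sampling noise (chi-square per degree of freedom 12.6 for C4-2 and 24.6 for LNCaP), so none was taken for a copy. DESeq2 1.42.0, other scalings, filters, transcripts, a replicate block and leaving out each library were tried. Members and lists were chosen with earlier results of these data known. Named genes were the 10 members, up to 4 called genes of each wider list by smallest adjusted p, and the 5 nearest in pattern to BCAT1 and to IVD; a few of these are not reported here, and PPM1K and the genes at 0 tags were named after their values were seen.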

Additional observations from a re-analysis of the deposited data

How the results depend on the processing

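Scaling to library totals changed the sign of 11 named genes. With library totals behind RPKM, 11572 genes were called higher and 1756 lower (6429 and 6346 with TMM), 9 of the 10 pathway genes were called higher and 1 lower, and 71 wider genes were higher and 3 lower. The genes that changed sign then stood at 0.86 (DBT), 0.32 (DLD), 0.63 (AUH), 0.55 (ACADSB), 0.44 (SLC43A1), 0.17 (RRAGB), 0.50 (DLAT), 0.26 (PDK2), 0.71 (PDK3), 0.14 (PSAT1) and 0.46 (ETFDH), all on the log2 scale; the shift of the median by 1.004 exceeds the size of each of these changes. ACAT1 lost its call (-0.10).

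DESeq2, its size factors in edgeR, no filter, the transcript of longest genomic span and the sum of transcripts changed no sign among named genes. Transcripts of BCAT1, BCAT2, BCKDHB and IVD tie in span, and there a transcript with fewer exon bases than in the main setting was taken. BCKDHA passed when transcripts were summed (0.16) and without a filter (0.20), and DBT did not pass without a filter (-0.10). Requiring CPM of at least 1 in all libraries left BCAT1 out, since its C4-2 values lie below that, and shifted log2 fold changes by a median of -0.123, with PCCA (0.07) among the genes that lost their calls. Leaving out each library gave 6 or 7 pathway genes higher and 2 or 3 lower, and BCAT1 between -8.91 and -8.34; BCKDHA passed without LNCaP replicate 2 (0.18).

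The labels do not say whether replicate numbers pair the lines. Deviations of same-numbered libraries correlated at -0.032, which cannot settle this with 2 libraries per line. With the replicate block 6259 genes were higher and 6141 lower, and 2 pathway genes were lower in place of 3, DBT not passing. Depth limits BCAT1 in C4-2, at 69 tags over both libraries.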

Other observations

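Opposite-strand tags stayed low for all members other than BCAT1, at no more than 2.53 per 100 sense tags in any library. Those of IVD numbered 102 and 66 in C4-2 and 47 and 106 in LNCaP, and those of DBT 116 and 87 in C4-2 and 77 and 88 in LNCaP.

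The shorter BCAT2 transcript (NM_001164773) stood at 1.03 and 1.01 times the RPKM of the longer (NM_001190) in C4-2, against 0.951 and 0.961 times in LNCaP. AMT, the aminomethyltransferase gene of glycine cleavage, had 31 and 35 tags in C4-2, against 40 and 59 in LNCaP. It was called lower (log2 fold change -1.65 ± 0.31, SE), where GLDC of the same system was higher. AMT was near the limit of detection in both lines, at 0.058 and 0.093 RPKM in C4-2 and 0.096 and 0.136 RPKM in LNCaP. Its opposite strand held about as many tags, 44 and 30 in C4-2 and 43 and 44 in LNCaP. AMT was named after its values were seen.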
